A study of Mus musculus with 24 samples.

Results

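The transcripts described here encode the route by which calcium passes from the cytosol into the mitochondrial matrix: the 3 voltage-dependent anion channels (Vdac1, Vdac2 and Vdac3), members of the uniporter complex (Mcu, Smdt1 and Micu2), the inner membrane exchanger gene Letm1, the matrix cyclophilin gene Ppif and the outer membrane protein gene Tspo. These 9 genes were chosen by name for their role in mitochondrial calcium uptake. The count table held rows for 8 of them among its 12310 genes. Tspo was not analysed here. MIN6, a mouse insulinoma line that secretes insulin, was studied in 12 libraries from verapamil-treated cells (50 µM; 24 h) and in 12 libraries from untreated (control) cells, both in medium with 5.6 mM glucose. Verapamil blocks L-type calcium channels. The methods name 4 sets of experiments, each with 3 replicates per group, while the deposited design text counts 12 independent experiments. The set of a library was inferred from the first digit of the code in its label. No source used here spells this reading out, and all values per set rest on it. Where the replicates of a set share a source, p-values over the 12 libraries measure a spread that is partly technical. The cells are from a single tumor-derived line, so that the level of a transcript is a mean over a culture, and more RNA per cell cannot be told apart from more cells that express the gene.

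Calcium and small metabolites cross the outer mitochondrial membrane through the voltage-dependent anion channels, β-barrel proteins that also pass ATP, ADP and phosphate. Entry into the matrix takes place through the uniporter, a channel of the inner membrane built from the pore-forming protein MCU and the small membrane protein EMRE (encoded by Smdt1), and gated by calcium-sensing proteins, among them MICU2. LETM1 takes part in cation exchange across the inner membrane, and cyclophilin D, the product of Ppif, lowers the threshold of the permeability transition that calcium overload sets off. In pancreatic β-cells, matrix calcium stimulates dehydrogenases that feed ATP production during glucose-stimulated insulin secretion.

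With verapamil, transcripts of Vdac1, Vdac2, Mcu, Smdt1 and Ppif rose and those of Micu2 and Letm1 fell, while Vdac3 did not pass the test (edgeR quasi-likelihood test over all 24 libraries, Benjamini-Hochberg adjustment over the 12306 genes tested, threshold 0.05). When the trends of each library with transcript GC content and length were taken as covariates, only the calls of Vdac2 and Mcu held, those of Vdac1, Ppif, Micu2 and Letm1 were lost, and Smdt1 was called lower. The treatment moved a large part of the transcriptome: of all genes tested, 62.8% were called, 31.2% as higher and 31.6% as lower, and the 5 higher and 2 lower of the 8 genes stand beside that background. The median log2 fold change of the 8 genes was 0.33, beside -0.0033 over all genes tested. In size, the changes of the 7 called genes lay between the 32.6th percentile of all genes (Letm1) and the 82.6th (Micu2), with Vdac1 and Letm1 below the median gene and the other 5 above it.

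**Figure D1:**
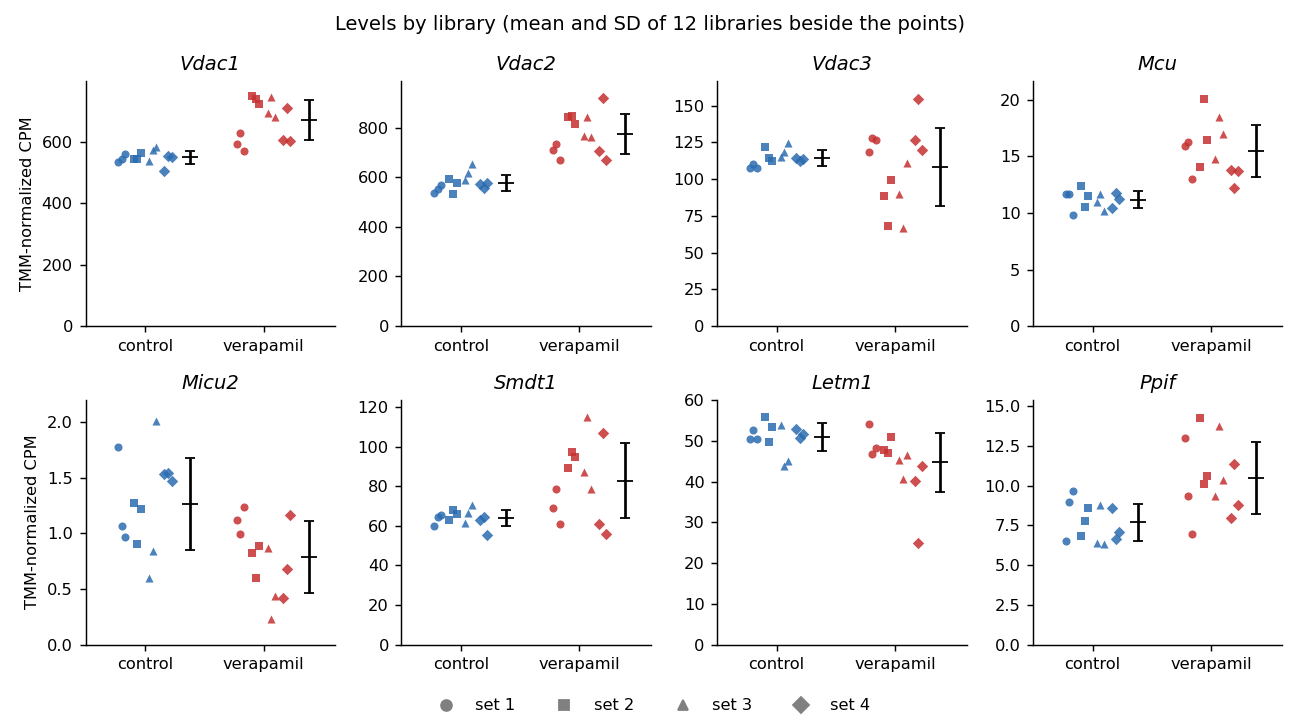
TMM-normalized CPM of the 8 genes per library, with the 12 controls in blue, the 12 verapamil libraries in red, a marker shape for each experiment set and bars for the mean and SD. All 12 verapamil libraries lie above every control library for Vdac2 and 11 of 12 for Vdac1 and Mcu, whereas Vdac3 spreads to both sides of the controls, and Letm1 holds a low verapamil library of set 4.

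Of the 5 genes called higher without covariates, the sequence ahead of the start site was at hand for Vdac1, Mcu, Smdt1 and Ppif (RefSeq, GRCm38.p6). Each is shown 5′ to 3′ on the strand of its gene, up to the first base of any annotated exon, at chr11:52360601-52360850 (plus strand, 250 bases), chr10:59616693-59616942 (minus strand, 250 bases), chr15:82345796-82345953 (plus strand, 158 bases) and chr14:25693920-25694153 (plus strand, 234 bases). Capitals mark matches on either strand to the cyclic AMP response element TGACGTCA, the CCAAT box and the GC box GGGCGG.
Vdac1: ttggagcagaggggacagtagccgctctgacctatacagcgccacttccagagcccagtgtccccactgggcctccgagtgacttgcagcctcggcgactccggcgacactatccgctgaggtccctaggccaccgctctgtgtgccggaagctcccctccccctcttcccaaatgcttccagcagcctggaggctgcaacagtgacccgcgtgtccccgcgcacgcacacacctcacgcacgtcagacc
Mcu: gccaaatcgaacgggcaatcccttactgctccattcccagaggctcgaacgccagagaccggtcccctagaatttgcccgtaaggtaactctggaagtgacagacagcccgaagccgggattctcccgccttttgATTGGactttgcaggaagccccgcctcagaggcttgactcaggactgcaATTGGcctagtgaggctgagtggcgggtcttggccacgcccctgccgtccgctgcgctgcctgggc
Smdt1: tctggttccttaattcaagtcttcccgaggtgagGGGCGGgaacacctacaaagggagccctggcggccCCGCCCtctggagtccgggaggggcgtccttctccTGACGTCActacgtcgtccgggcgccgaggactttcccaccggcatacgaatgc
Ppif: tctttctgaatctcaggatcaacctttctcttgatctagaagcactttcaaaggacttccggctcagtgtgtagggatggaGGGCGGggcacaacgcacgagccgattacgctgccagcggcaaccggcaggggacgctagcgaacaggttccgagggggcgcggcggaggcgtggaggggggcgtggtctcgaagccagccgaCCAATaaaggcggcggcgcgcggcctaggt
The windows of the 4 genes share no motif among those searched. The cyclic AMP response element was found in the window of Smdt1, 146 bases ahead of its start site, and 1.546% of 32851 mouse promoter windows of 250 bases hold it. The CCAAT box, which 33.85% of the windows hold, was found at 115 and 66 bases ahead of the start of Mcu, both times on the opposite strand, and at 46 bases ahead of that of Ppif. The GC box, which 32.74% hold, was found in Smdt1 and Ppif. The window of Vdac1 held none of these, and the TATA box (TATAAA) was found in none of the 4. The motifs do not overlap one another in these windows, and a match describes letters only. Over the full 250 bases ahead of genes called lower, Letm1 held a CCAAT box and 3 GC boxes, and Micu2 a GC box.

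Transcripts of Vdac1 and Vdac2 both rose, and Vdac2 lay above every control in each of the 12 verapamil libraries. Vdac2 (chromosome 14 of GRCm38, 21825238 to 21845879), whose protein also holds the pro-apoptotic protein BAK at the outer membrane, ranged from 534 to 652 CPM (median 574) in control and from 668 to 921 CPM (median 763) in verapamil libraries. The groups did not overlap, which was so for 4.95% of all genes tested in the direction of an increase. The log2 fold change of Vdac2 was 0.42 ± 0.050 (standard error, n = 12 libraries per group, adjusted p = 2.4e-07 by edgeR), or 1.34-fold. Vdac1 (chromosome 11, 52360860 to 52389397), the channel through which mitochondria are tethered to calcium release sites of the endoplasmic reticulum, ranged from 504 to 582 CPM (median 548) in control and from 570 to 748 CPM (median 688) in verapamil libraries. A single verapamil library, of set 1, lay within the control range, and the log2 fold change was 0.29 ± 0.046 (standard error, n = 12 per group, adjusted p = 1.5e-05 by edgeR), or 1.22-fold. The value of Vdac1 was 0.15 after the GC and length correction with longest transcripts (adjusted p = 3.9e-04) and 0.062 with covariates (0.392). Vdac2 overlaps Comtd1 on the opposite strand, and whether the counting used strand is not known from the sources used here.

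Vdac3 (chromosome 8, 22577075 to 22593813), the least abundant of the 3 channels per kilobase, spread out rather than shifted. Control libraries were tight, from 108 to 124 CPM (median 114), and verapamil libraries ranged from 66.4 to 154 CPM (median 115). The coefficient of variation was 4.56% in control and 24.3% in verapamil libraries, with 4 verapamil libraries above and 5 below all controls. A wider spread with verapamil was not particular to Vdac3. The coefficient rose for each of the other 7 genes as well, for Smdt1 from 6.12% to 22.8%. Over all genes, the biological coefficient of variation was 0.102 in control and 0.275 in verapamil libraries. The log2 fold change was -0.079 ± 0.10 (standard error, n = 12 per group, adjusted p = 0.51 by edgeR, 95% interval -0.29 to 0.13), so that the mean change was not resolved. The libraries above the controls came from sets 1 and 4 and those below from sets 2 and 3. Within sets the log2 difference was 0.20 in set 1 and 0.24 in set 4, neither past the test, and -0.45 (adjusted p = 0.012) in set 2 and -0.42 (adjusted p = 0.019) in set 3 by edgeR, beside 11%, 53.3%, 49.9% and 13.5% of all genes called within sets 1 to 4. The difference between sets was itself past the test for Vdac3 (interaction of set and treatment in edgeR, adjusted p = 0.030), which held for 9.67% of all genes, and for none of the other 7 genes (adjusted p from 0.165 for Vdac1 to 0.679 for Ppif). Sets 2 and 3 were also those whose verapamil libraries had the stronger trend with transcript GC content (mean r of 0.542 and 0.554, beside 0.188 and 0.158 in sets 1 and 4), and its part in this difference was not tested. Reads of Vdac3 may be shared with Vdac3-ps1, a pseudogene on chromosome 13 with 849 of 853 aligned positions identical, whose counts had a median of 51.2% of those of Vdac3 in control and 45.2% in verapamil libraries. Counted together, the log2 fold change was -0.11 (adjusted p = 0.299 by edgeR).

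Per kilobase of coding transcript, control levels were 295 ± 16.9 CPM for Vdac2, 272 ± 10.0 CPM for Vdac1 and 80.4 ± 3.67 CPM for Vdac3 (SD, n = 12), and verapamil levels were 396 ± 41.1, 332 ± 32.7 and 76.0 ± 18.5 CPM in the same order. On this scale Vdac2 made up 45.6% ± 0.990 of the 3 channel transcripts in control and 49.2% ± 1.25 in verapamil libraries, with ranges of 43.9% to 47.1% and 47.2% to 51.2%. With the length of the longest transcript in place of the coding one, its ranges overlapped (46.9% to 50.4% and 50.1% to 53.8%). The share of Vdac3 was 12.4% ± 0.373 and 9.57% ± 2.55, and that of Vdac1 ranged from 40.0% to 43.2% in control and from 37.7% to 43.6% in verapamil libraries. Counted within a library, the ratio of Vdac2 to Vdac1 had a median of 1.03 (0.983 to 1.14) in control and 1.14 (1.10 to 1.30) in verapamil libraries, a log2 difference of 0.13 (permutation test with 100000 resamples, two-sided p = 6e-05, adjusted p = 0.00016 over the 6 ratios formed). By set, this difference was 0.22, 0.13, 0.025 and 0.16 in sets 1 to 4. The ratio of Vdac3 to Vdac1 had medians of 0.206 and 0.180, a log2 difference of -0.40 (permutation p = 0.0077, adjusted p = 0.012). By set, this difference was 0.070, -0.88, -0.78 and -0.023 in sets 1 to 4, and it did not pass the test without set 2 (-0.24, adjusted permutation p = 0.188) or without set 3 (-0.28, 0.183).

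Among the uniporter genes, the pore transcript rose and the transcript of a gatekeeper fell. Mcu (chromosome 10, 59446984 to 59616692) ranged from 9.86 to 12.4 CPM (median 11.4) in control and from 12.2 to 20.1 CPM (median 15.4) in verapamil libraries. It lay above all controls in 11 of 12 libraries, the exception being a library of set 4 just within the control range, and its log2 fold change was 0.47 ± 0.071 (standard error, n = 12 per group, adjusted p = 5.9e-06 by edgeR), or 1.39-fold. The log2 differences within sets were 0.44, 0.56, 0.61 and 0.25. Smdt1 (chromosome 15, 82338959 to 82349091), which encodes the EMRE subunit that links the pore to its gatekeepers, ranged from 55.4 to 70.4 CPM (median 64.3) in control and from 55.8 to 115 CPM (median 83.1) in verapamil libraries. It was above all controls in 8 of 12 libraries, with a log2 fold change of 0.37 ± 0.096 (standard error, n = 12 per group, adjusted p = 0.0019 by edgeR), or 1.30-fold. The direction of Smdt1 depended on the handling of GC content and length, with -0.22 (adjusted p = 0.0146) with covariates, -0.0075 (0.894) after the correction with longest transcripts and -0.087 (0.0385) with coding ones. The 4 overlapping libraries came from sets 1 and 4, and the log2 differences within sets 1 to 4 were 0.14, 0.51, 0.51 and 0.29.

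Micu2 (chromosome 14, 57916261 to 57999262), whose protein helps to keep the pore closed at low cytosolic calcium, was near the lower limit of what this depth can measure. Its counts were 17 to 53 per control library and 5 to 56 per verapamil library, or 0.599 to 2.01 CPM (median 1.25) and 0.225 to 1.24 CPM (median 0.844). The groups overlapped in 9 of 12 verapamil libraries, and the log2 fold change was -0.64 ± 0.22 (standard error, n = 12 per group, adjusted p = 0.016 by edgeR), or 0.643-fold. Within sets it was -0.19, -0.54, -1.05 and -0.99, none of which passed the test alone. The call was lost without set 2 (-0.67, adjusted p = 0.0623), without set 4 (-0.51, 0.102) or without the verapamil libraries of set 3 (-0.48, 0.0563).

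Letm1 (chromosome 5, 33739673 to 33782817) ranged from 43.8 to 55.8 CPM (median 51.2) in control and from 25.0 to 54.2 CPM (median 46.7) in verapamil libraries, with 3 of 12 libraries below all controls. Its log2 fold change of -0.19 ± 0.081 (standard error, n = 12 per group) only just passed the test (adjusted p = 0.047 by edgeR), and the call was lost in 14 of the 24 fits that left out a single library. The lowest library, at 25.0 CPM, was the column V11 of set 4, which was also the highest in Vdac2 and Vdac3. Without V11 the log2 fold change of Letm1 was -0.14 (adjusted p = 0.023 by edgeR). V11 also had the strongest trend with log2 transcript length of all 24 libraries (r = -0.586, beside -0.0716 in V10 and -0.0379 in V12). The part of that trend in the low Letm1 value was not tested. Set 4 alone gave a difference past the test (-0.51, adjusted p = 0.019 by edgeR), and without set 4 it was -0.092 (adjusted p = 0.167).

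Ppif (chromosome 14, 25694154 to 25700468) ranged from 6.34 to 9.65 CPM (median 7.41) in control and from 6.94 to 14.3 CPM (median 10.2) in verapamil libraries. It was above all controls in 7 of 12 libraries, from all 4 sets, and its log2 fold change was 0.44 ± 0.11 (standard error, n = 12 per group, adjusted p = 0.0012 by edgeR), or 1.36-fold. The log2 differences within sets 1 to 4 were 0.22, 0.59, 0.63 and 0.33. Per kilobase of coding transcript, the transcript of EMRE was at a higher level than that of the pore in both groups, with Smdt1 at 90.8 ± 5.55 CPM in control and 118 ± 26.9 CPM with verapamil, and Mcu at 3.89 ± 0.264 and 5.40 ± 0.810 CPM (SD, n = 12). On the same scale Letm1 was at 9.66 ± 0.663 and 8.49 ± 1.40 CPM, Ppif at 4.96 ± 0.762 and 6.77 ± 1.47 CPM, and Micu2 at 0.544 ± 0.178 and 0.338 ± 0.138 CPM. The order of the mean levels was Vdac2, Vdac1, Smdt1, Vdac3, Letm1, Ppif, Mcu and Micu2 in both groups. Neighbouring means lay further apart than the sum of their SDs in control libraries except for Vdac2 and Vdac1, and with verapamil the pairs Vdac2 and Vdac1, Smdt1 and Vdac3, Letm1 and Ppif, and Ppif and Mcu lay within it. With the length of the longest transcript in place of the coding one, Ppif lay below Mcu in both groups. Ppif was then at 2.11 CPM in control and 2.88 CPM with verapamil, beside 3.89 and 5.40 CPM for Mcu.

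**Figure D2:**
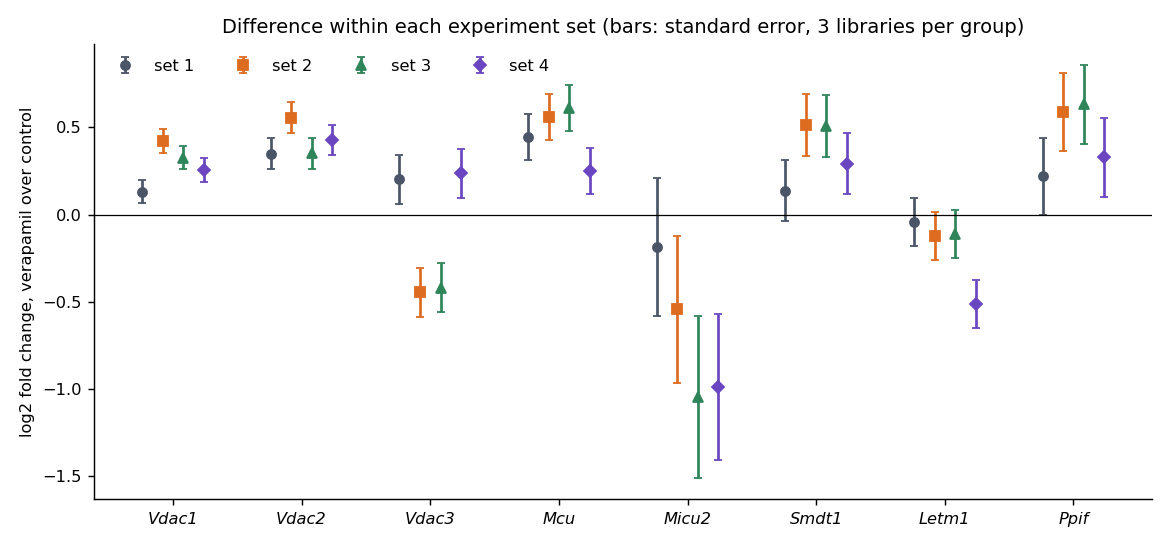
Log2 fold change (verapamil over control) of the 8 genes within each experiment set, with bars for the standard error (3 libraries per group in each set). Vdac1, Vdac2, Mcu, Smdt1 and Ppif have positive values in all 4 sets, Micu2 and Letm1 negative values in all 4, and Vdac3 is positive in sets 1 and 4 and negative in sets 2 and 3.

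When counts were summed per set and group, which makes no use of the 3 replicates as separate samples, the 4 verapamil sums lay above the 4 control sums for Vdac1, Vdac2, Mcu, Smdt1 and Ppif (exact permutation test, two-sided p = 0.0286 for each, the smallest that 4 against 4 allow). The sums overlapped for Micu2 (exact p = 0.0857), Letm1 (exact p = 0.0857) and Vdac3 (exact p = 0.571). How often the sums of other genes separate was not counted. In the edgeR fit of these sums, 3005 of 12308 genes were called higher and 2124 lower. The mean log2 differences of the sums were 0.28 for Vdac1, 0.42 for Vdac2, 0.45 for Mcu, 0.36 for Smdt1 and 0.42 for Ppif.

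Of the 6 ratios, the one between the inner membrane genes Letm1 and Mcu was the only one that separated all libraries of the groups. How often the ratios of other gene pairs do so was not counted, and 31.2% of all genes were called higher and 31.6% lower. The ratio of Letm1 to Mcu counts had a median of 4.55 (3.74 to 5.13) in control and 2.99 (2.04 to 3.70) in verapamil libraries. It was below all controls in 12 of 12 verapamil libraries, a log2 difference of -0.67 (permutation test with 100000 resamples, two-sided p = 2e-05, the smallest these resamples can give, adjusted p = 0.00012 over the 6 ratios). It was negative in each set (-0.49, -0.67, -0.71 and -0.80). After a correction for the GC content and length of the longest transcripts it was -0.66, and with coding transcripts -0.68. The ratio was not fitted with the GC and length trend as covariates. In that fit of single genes, Letm1 was at -0.022 (adjusted p = 0.913 by edgeR) and Mcu at 0.32 (0.028). A ratio shows unequal change of its genes and not which of them changed. The ratio of Micu2 to Mcu was lower as well, with a log2 difference of -1.22 (permutation p = 8e-05, adjusted p = 0.00016) and 5 of 12 libraries below all controls. The ratio of Smdt1 to Mcu differed by -0.12 (permutation p = 0.251, adjusted p = 0.251) and that of Ppif to Vdac1 by 0.15 (permutation p = 0.135, adjusted p = 0.162), and neither passed the test. The ratios of sums reached the smallest exact p of 0.0286 for Vdac2 to Vdac1, Micu2 to Mcu and Letm1 to Mcu, which the adjustment over 6 ratios turned into 0.0571.

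**Figure D3:**
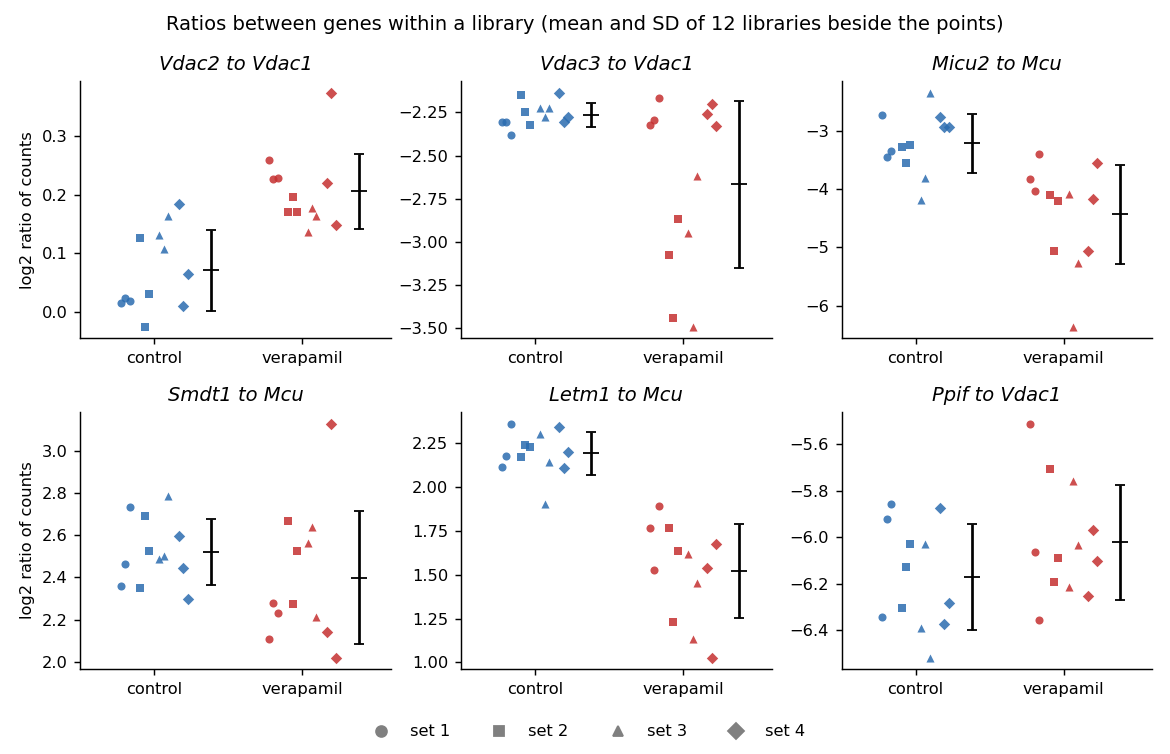
Log2 ratios of counts between genes within a library, with the 12 controls in blue, the 12 verapamil libraries in red, a marker shape for each experiment set and bars for the mean and SD. The ratio of Letm1 to Mcu separates the groups in all 12 verapamil libraries, and that of Vdac3 to Vdac1 is low in the libraries of sets 2 and 3 only.

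Of the other uniporter partners and calcium exchange genes, 13 of the 16 listed were measured, of which 7 rose, 4 fell and 2 missed the threshold (median log2 fold change 0.20). Micu3, a gatekeeper gene best known from neurons, fell by 0.72 on the log2 scale (35.2 to 21.3 CPM, adjusted p = 0.018 by edgeR). Phb, a prohibitin of the inner membrane, rose by 0.50 (15.1 to 21.3 CPM), and Tmem65, an inner membrane protein linked to sodium-calcium exchange, fell by 0.72 (34.5 to 20.9 CPM). The largest change of the list was a decrease of Yme1l1, a protease of the inner membrane, by 1.19 (209 ± 8.74 to 91.8 ± 58.1 CPM, SD, n = 12 per group), below all controls in 12 of 12 libraries, which held for 5.18% of all genes. With covariates Yme1l1 was at -0.082 (adjusted p = 0.809), Micu3 at 0.43 (0.11), Tmem65 at -0.0053 (0.986) and Phb at 0.024 (0.886). With counts summed per set the calls of Yme1l1 (0.0523) and Micu3 (0.154) were lost.

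Contact sites between endoplasmic reticulum and mitochondria, where calcium reaches the channels, gave no common direction: of 16 genes measured, 7 rose, 6 fell and 3 missed the threshold (median 0.044). Dnm1l, a mitochondrial fission GTPase, fell by 0.83 on the log2 scale (144 to 81.1 CPM), Pdzd8, a tether of the reticulum, fell by 0.70 (47.5 to 29.1 CPM), and Mfn1, an outer membrane fusion GTPase, fell by 0.41 (137 to 104 CPM). All 3 turned with covariates, Dnm1l to 0.19 (adjusted p = 0.44), Pdzd8 to 0.42 (0.0364, called higher) and Mfn1 to 0.21 (0.165), and lost their calls with counts summed per set (0.0854, 0.080 and 0.0996). In the machinery that imports and assembles outer membrane proteins, including the channels, 10 of 11 genes rose and Tomm70a, an import receptor, fell by 0.49 (218 to 155 CPM). The largest increases of that list were Tomm7 and Tomm5, small subunits of the import pore, with log2 fold changes of 0.44 each, and Tomm40, the pore itself, with 0.35. With covariates Tomm70a was at 0.058 (adjusted p = 0.777), Tomm7 at -0.14 (0.150), Tomm5 at 0.097 (0.480) and Tomm40 at -0.078 (0.318), and the call of Tomm70a was lost with counts summed per set (0.0669).

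Of 9 genes of nucleotide exchange and the permeability transition, partners of the channels and of cyclophilin D, 6 rose and none fell (median 0.20). Bak1 and Bax, pro-apoptotic proteins of the outer membrane, rose by 0.70 and 0.55 on the log2 scale (4.22 to 6.82 and 122 to 178 CPM). Slc25a5, an ADP/ATP carrier, rose by 0.44 and Slc25a3, the phosphate carrier, by 0.38. None of these 4 was called with covariates, where Bak1 was at 0.31 (adjusted p = 0.093) and the others between 0.027 and 0.13. Of 12 calcium-responsive matrix dehydrogenases and carriers, 6 fell and 1 rose (median -0.13). Pdha1, a subunit of pyruvate dehydrogenase, and Gpd2, the mitochondrial glycerol phosphate dehydrogenase, both fell by 0.57, and the aspartate-glutamate carrier genes Slc25a13 and Slc25a12 fell by 0.47 and 0.36. The list turned after the GC and length correction with longest transcripts (4 higher, 2 lower, median 0.11). With coding transcripts it had 2 higher and 2 lower (median 0.032), and with covariates 0 higher and 1 lower (median -0.13). Counts summed per set gave 0 higher and 3 lower. With covariates Pdha1 was at 0.17 (adjusted p = 0.536 by edgeR), Gpd2 at -0.23 (0.416), Slc25a13 at -0.32 (0.132) and Slc25a12 at -0.19 (0.0463, called lower). With summed counts the calls of Pdha1 (0.0894) and Gpd2 (0.0734) were lost. Of 8 genes that act with TSPO or in mitochondrial cholesterol handling, 5 rose and none fell (median 0.29): Stard4, a cholesterol transfer protein, by 0.73, Dbi, the acyl-CoA-binding ligand of TSPO, by 0.53, Atad3a, an inner membrane ATPase, by 0.36 and Tspoap1, a TSPO-binding protein, by 0.22. With covariates Stard4 was at 1.18 (adjusted p = 1.6e-09 by edgeR), Dbi at 0.17 (0.0261) and Tspoap1 at 0.40 (8.28e-04). Atad3a was at 0.12 (0.285) and lost its call. The counts of the 6 lists stand beside the 31.2% and 31.6% of all genes called higher and lower. In a fit that took each library's GC and length trend as covariates, 2, 4, 1, 0, 0 and 4 genes of the 6 lists, in the order given, were called higher and 0, 1, 0, 2, 1 and 0 lower, beside 1390 and 1067 of all 12310 genes in that fit.

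The genes whose levels followed Vdac2 most closely over the 24 libraries, relative to their own control means, were Polr1d, Gars and Zmynd19, with root-mean-square differences of 0.056, 0.057 and 0.057 on the log2 scale (median 0.381 over the 8015 protein-coding genes whose mean reached 5 CPM). Those closest to Mcu were Sept9, Anxa5 and Aldh18a1, with 0.118, 0.119 and 0.119 (median 0.410).

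Total counts ranged from 12590476 to 44806556 per library. Of 12 β-cell markers, 11 were measured and summed to 6978 to 8250 CPM in control and 6402 to 7378 CPM in verapamil libraries, where 1 rose and 5 fell. Gcg, a marker of α-cells, was at 174 to 198 CPM in control and 176 to 333 CPM in verapamil libraries, markers of ductal cells (2 measured) and fibroblasts (1 measured) summed to at most 53.7 and 1.45 CPM in a library, and those of acinar, endothelial and immune cells were not analysed here. The part of the marker changes in these results was not tested. Verapamil libraries also carried a trend of their deviations with the GC content of the transcripts (mean r over genes of 0.188, 0.542, 0.554 and 0.158 in sets 1 to 4, and -0.0302 to 0.0318 in controls) and with log2 transcript length (mean r of -0.185, -0.33, -0.349 and -0.232). The r values are descriptions across genes within a library, which share its composition and depth.

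**Figure D4:**
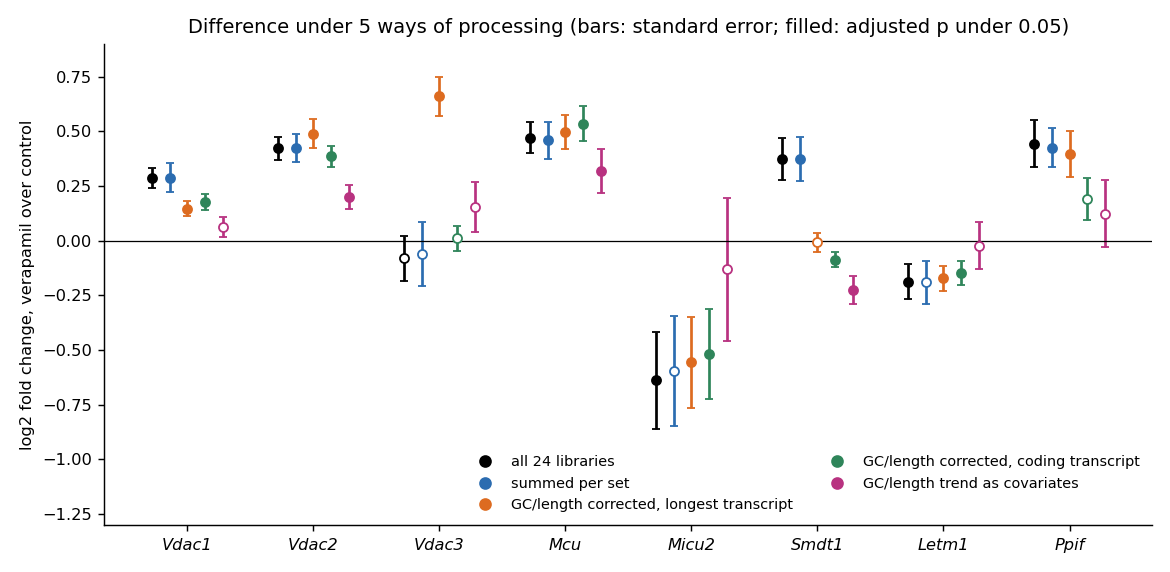
Log2 fold change (verapamil over control) of the 8 genes with all 24 libraries, with counts summed per set, after a GC and length correction with the longest or the coding transcript, and with the GC and length trend as covariates; bars are standard errors, and filled points have an adjusted p under 0.05. Vdac2 and Mcu stay above 0 and filled in all 5 fits, while Smdt1 turns from 0.37 to -0.22 with covariates.

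With that trend as covariates, Vdac2 (0.20, adjusted p = 0.011 by edgeR) and Mcu (0.32, 0.028) kept their calls. Vdac1 (0.062, 0.392), Ppif (0.12, 0.632), Micu2 (-0.13, 0.824) and Letm1 (-0.022, 0.913) lost them, and Smdt1 turned to -0.22 (0.0146). Smdt1, with 58.3% GC and a coding transcript of 705 bases, is both the most GC-rich and the shortest of the 8 genes, and Vdac3 at 45.7% is the least GC-rich. The trend overlaps with the treatment (variance inflation 2.63), so that the part of it in these changes cannot be told apart from that of verapamil.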

How the data were processed

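MIN6 libraries (12 control and 12 verapamil) were grouped from the sample labels. The deposited values are raw read counts, made by the authors, per their methods and the submitters' processing notes, with bcl2fastq 2.20, Trimmomatic 0.39, HISAT2 2.1.0 on GRCm38 and HTSeq 0.9.1. For the counting, strand setting and annotation release are unknown: not given in the sources used here. The methods give 40 ng of RNA and a TruSeq stranded mRNA kit, the labels another amount and kit. The authors also deposited the columns of their own comparison (log2 and ratio fold changes, log2 CPM, p-values and adjusted p-values), which were not used. The names of 4 columns (C11, C12, V11, V12) each match several labels. They entered as members of their group without a number and were placed in set 4 by elimination.

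All 24 libraries were compared with edgeR 4.0.16 in R 4.3.3 (filterByExpr with a minimum count of 10 and a minimum total of 15, TMM, quasi-likelihood test without covariates, Benjamini-Hochberg adjustment), tested on simulated data. A standard error is the absolute log2 fold change over the square root of F. CPM values are TMM-normalized. Permutation tests used scipy 1.17.1 with Python 3.11.15. Annotation was GENCODE M21, matched for 12308 of 12310 genes. Promoter sequences are RefSeq's (GRCm38.p6), where 6 of the 9 genes had an entry. GC and length came from the longest transcript, which is not a coding one for Vdac2, Vdac3 and Ppif, so coding transcripts were added after the data were seen. In other sets of genes, up to 4 called genes per list with the largest changes and a mean of at least 5 CPM were named. Some genes of the lists are counted but not reported by name here. The genes, the lists and this rule were chosen with earlier results of these data known. Counting error weighs most on Micu2. Alternatives were DESeq2 1.42.0, other filters and scalings, blocks, sums per set, left-out sets and libraries, and GC and length corrections. No pair of libraries within a group agreed within sampling noise (lowest chi-square per degree of freedom 5.72 over 132 pairs).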

Additional observations from a re-analysis of the deposited data

Results flagged for a closer look

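Over counts summed per experiment set, a single set stood apart from the other 3 of its group in 5 cases by Dixon's gap test at the 95% level, which chance alone gives in about 1 in 20 groups. The test was applied to each of the 8 genes and each of the 6 ratios, in control and in verapamil sums. Ratios that share a gene are not independent of one another. The gap as a share of the range was 0.845 for Mcu in control, where set 2 was highest at 11.4 CPM beside 11.1 to 11.2 CPM. It was 0.931 for the ratio of Vdac3 to Vdac1 in control (0.199 in set 1, 0.211 to 0.212 in the others). It was 0.849 for the ratio of Letm1 to Mcu in control (4.35 in set 3, 4.61 to 4.65 in the others). It was 0.878 for the ratio of Smdt1 to Mcu in verapamil sums (4.63 in set 1, 5.53 to 5.67 in the others). It was 0.926 for the ratio of Ppif to Vdac1 in verapamil sums (0.0147 in set 4, 0.0157 to 0.0158 in the others). The gap of Smdt1 to Mcu is larger than the difference between the groups in that ratio, and 3 of the 5 gaps concern the spread of control sums.

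The effect of verapamil on Vdac3 differed between experiment sets (edgeR interaction, adjusted p = 0.0303), with differences of opposite sign in sets 1 and 4 and in sets 2 and 3. In verapamil libraries the mean r with GC content was 0.188 (set 1), 0.542 (set 2), 0.554 (set 3) and 0.158 (set 4). Its part in the Vdac3 difference was not tested.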

How the results depend on the processing

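Adjusted p-values are edgeR's unless a permutation is named. Vdac2 and Mcu kept direction and call in every alternative run, and Vdac1, Smdt1 and Ppif in all but some of the GC and length settings. DESeq2 (size factors or Wald test), other filters, the set block and leaving out single libraries changed no call except that of Letm1, whose log2 fold change ranged from -0.215 to -0.136 with a single library left out. Its call was lost without verapamil library 8, 9, 10 or V12 and without control library 1 to 7, 10, C11 or C12.

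Letm1 was at -0.19 (0.139) with counts summed per set, at -0.24 (0.0506), -0.21 (0.0904), -0.22 (0.0743) and -0.092 (0.167) without sets 1, 2, 3 and 4, and at -0.18 (0.0883) and -0.10 (0.0693) without the verapamil libraries of sets 3 and 4. Micu2 was at -0.60 (0.0823) with summed counts, at -0.67 (0.0623) and -0.51 (0.102) without sets 2 and 4, and at -0.48 (0.0563) without the verapamil libraries of set 3. Of all genes, 2124 were called lower with summed counts (fewer samples) and 2518 without set 2, beside 3890.

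With the GC and length trend as covariates, the values were 0.062 for Vdac1 (0.392), 0.12 for Ppif (0.632), -0.13 for Micu2 (0.824), -0.022 for Letm1 (0.913) and -0.22 for Smdt1 (0.0146, reversed), and 1390 genes were called higher and 1067 lower. With coding transcripts they were 0.062 (0.383), 0.12 (0.629), -0.13 (0.83), -0.017 (0.931) and -0.23 (0.0128), with 1420 and 1076 genes. After the correction of counts, Smdt1 was at -0.0075 (0.894) with longest transcripts and at -0.087 (0.0385) with coding ones, Ppif at 0.19 (0.0939) with coding ones, and Vdac3 at 0.66 (8.97e-07) with the longest, a non-coding transcript of 1 exon of 39.1% GC, against 0.012 (0.877) with the coding one. The causes were not tested.

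Among the ratios, sums per set gave 0.14 for Vdac2 to Vdac1, -1.10 for Micu2 to Mcu and -0.65 for Letm1 to Mcu. Each had the smallest possible exact permutation p of 0.0286, which the adjustment turned into 0.0571. The sums gave -0.37 for Vdac3 to Vdac1 (adjusted exact permutation p = 0.206). Vdac3 to Vdac1 was at -0.24 and -0.28 without sets 2 and 3, at 0.49 after the correction with longest transcripts and at -0.18 (adjusted permutation p = 0.0533) with coding ones. Smdt1 to Mcu was at -0.49 and -0.61 and passed the test in both, and Ppif to Vdac1 was at 0.24 (0.029) with the longest only.

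The numbers in the titles did not pair the samples: over the 10 numbered pairs, same-numbered libraries correlated in their deviations at -0.051 to 0.114, 2 of 10 over 0.1, and 1 library correlated best with its own number. With the replicate block on these pairs Letm1 was at -0.12 (0.0624), and without the block on the same pairs at -0.12 (0.0681); it changed no other call of the 8 genes.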
